A study of Mus musculus with 17 samples.

Results

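Memory B cells leave the germinal centre through precursors that carry a small set of transcripts, and 8 of these genes were followed here among the 21848 genes counted in the single-cell libraries: Ccr6, Cd80, Pdcd1lg2, Cd38, Nt5e, Hhex, Tle3 and Zbtb32. The genes were taken by symbol from the gene lists of the matrices, and each symbol had 1 gene identifier. The level of a gene is given as its UMIs (counts of distinct RNA molecules) per 1000000 UMIs of a mouse (CPM), with the mouse as the replicate.

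Germinal centre B cells that receive little T cell help in the light zone can exit as memory cells, whereas those that receive strong help move to the dark zone and divide. In mice, germinal centre B cells lose the ectoenzyme CD38 and memory cells regain it. CCR6, the receptor for the chemokine CCL20, marks light-zone cells that are about to leave. CD80 and PD-L2 (Pdcd1lg2), ligands of T cell costimulatory and inhibitory receptors, and CD73 (Nt5e), which turns AMP into adenosine, divide memory cells into subsets. HHEX is a homeodomain repressor needed for memory B cell formation, TLE3 is a corepressor that it binds, and ZBTB32 is a zinc-finger repressor that restrains memory recall responses.

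The transferred cells were B1-8hi B cells (NP-specific), given to OVA-primed CD45.1 mice that were then immunized in the footpad with NP-OVA. A minority of the transferred cells carried DEC-205 together with Col1a1 tetO-H2B-mCherry and a Vav-tTA transgene, and the others were Ly75-/- and lacked DEC-205. The paper describes the time-course cells as DEC-205+ germinal centre B cells. For tracking of divisions by mCherry, its mice were given doxycycline. Treated mice received anti-DEC-OVA, an antibody that delivers OVA to DEC-205+ cells and so gives them T cell help, at 7 dpi (days post immunization). The 0 h group was taken untreated at 7 dpi, the 48 h groups at 9 dpi and the 72 h groups at 10 dpi, each of the latter with and without anti-DEC-OVA. Per time and treatment there were 9 mice (0 h untreated), 6 (48 h untreated), 9 (48 h treated), 8 (72 h untreated) and 7 (72 h treated), in a pool of 25 mice and a pool of 14 mice that both held every group. A second set of 7 mice carried B1-8hi cells with Rosa26 DHB-tdTomato, a reporter that leaves the nucleus when CDK2 is active. The paper gives the sorted cells as having this reporter alone or together with H2B-GFP. Germinal centre B cells of these 7 mice were image-sorted 72 h after anti-DEC-OVA into CDK2-high cells (C, cytoplasmic reporter) and CDK2-low cells (N, nuclear reporter). Each CDK2 population formed 1 library, so population and library cannot be told apart, although both hold cells of the same mice. A first experiment had 3 mice in each of 3 groups, and its treated cells were sorted on low mCherry, so sort and treatment cannot be told apart there. The germinal centre gate was B220+, TCRb-, CD38-, Fas+, although the antibodies listed for the image sort were to B220, CD38 and FAS, with none to TCRb. The gate thus used the protein of 1 of the 8 genes. The ages are given in the study's methods only as a range over all its mice, which were of both sexes. Its reporting summary gives their background as C57BL/6J.

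Between 3475 and 6053 cells per group were kept in the time course, and 7448 CDK2-high and 4385 CDK2-low cells. The B1-8hi heavy- and light-chain pairing was found in 9208 of 13625 kept cells of the 25-mouse pool and 4369 of 10073 of the 14-mouse pool. It was found in 4691 CDK2-high and 2719 CDK2-low cells, and in 583 of 10681 cells of the first experiment. The paper kept only paired cells, whereas the main fits here used all kept cells. The mean depth was 7947 to 8737 UMIs per cell in 4 of the 5 time-course groups and 14860 in the 48 h treated group. It was 11080 in CDK2-high and 13580 in CDK2-low cells, and 1955 to 2318 in the first experiment. The cells fitted their label: all 7 germinal centre markers (Bcl6, Fas, S1pr2, Rgs13, Mef2b, Gcsam and Basp1) were detected in every group, and their summed level was 1478 to 2264 CPM per mouse. Plasma cell genes (7 listed, among them Sdc1, Prdm1 and Jchain) summed to 967 to 3000 CPM and myeloid or stromal genes (6 listed, among them Lyz2 and Csf1r) to 120 to 289 CPM, with Col1a1 at 0 in all groups but 48 h untreated. Jchain alone had 673 to 2364 CPM, and Cst3, of the myeloid list, 109 to 288 CPM. Sdc1, Prdm1, Lyz2 and Csf1r had at most 9.04, 16.15, 18.7 and 0.649 CPM in a mouse. Pairs of libraries shared 0 to 71 cell barcodes. In bulk sums over a mouse, fewer cells with a transcript, less transcript per cell and more UMIs of other genes cannot be told apart. Shares of cells with a UMI are therefore given for part of the comparisons.

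On GRCm39, Ccr6 (ENSMUSG00000040899) lies at chr17:8454869-8475973 and Cd80 (ENSMUSG00000075122) at chr16:38275923-38316697. Pdcd1lg2 (ENSMUSG00000016498) and Hhex (ENSMUSG00000024986) share a chromosome, at chr19:29388319-29448882 and chr19:37423258-37429179, as do Tle3 (ENSMUSG00000032280) and Nt5e (ENSMUSG00000032420), at chr9:61279592-61325778 and chr9:88209089-88254146. Cd38 (ENSMUSG00000029084) lies at chr5:44025875-44069717, and Zbtb32 (ENSMUSG00000006310), alone of the 8 on the minus strand, at chr7:30289105-30302262. Hhex and Nt5e overlap no other annotated gene, and the other 6 overlap antisense genes, which for Cd80 include the protein-coding Timmdc1. On their own strand, Cd38 also overlaps the long non-coding RNA gene Gm16014 and Cd80 overlaps Gm59959. How the counting treated strand is not given in the sources used here. Whether reads of antisense pairs were kept apart is thus not known.

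Promoters are shown for 4 members that behaved differently in what follows: Hhex and Ccr6, with the steepest CDK2 differences, Tle3, the corepressor that joins HHEX, and Cd80, which moved the other way. Each runs 5′ to 3′ from 250 bases before to 50 bases after a RefSeq start (GRCm38.p6, all on the plus strand), and capitals mark a motif match. The 4 motifs searched on both strands were CACGTG (E-box, Myc type), TGANTCA (AP-1 core), the NF-kB type (GGGA and TTCC with 2 bases of any kind between) and TTCNNNGAA (STAT type), of which the AP-1 core is also the core of longer BACH2 sites and the STAT type resembles BCL6 sites.
Hhex chr19:37434591-37434890: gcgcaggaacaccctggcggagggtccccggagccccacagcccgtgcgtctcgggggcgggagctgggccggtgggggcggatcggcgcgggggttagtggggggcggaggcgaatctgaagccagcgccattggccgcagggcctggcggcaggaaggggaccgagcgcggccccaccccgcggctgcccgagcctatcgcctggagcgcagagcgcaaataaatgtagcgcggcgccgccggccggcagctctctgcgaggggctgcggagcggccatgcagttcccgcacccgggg
Ccr6 chr17:8235793-8236092: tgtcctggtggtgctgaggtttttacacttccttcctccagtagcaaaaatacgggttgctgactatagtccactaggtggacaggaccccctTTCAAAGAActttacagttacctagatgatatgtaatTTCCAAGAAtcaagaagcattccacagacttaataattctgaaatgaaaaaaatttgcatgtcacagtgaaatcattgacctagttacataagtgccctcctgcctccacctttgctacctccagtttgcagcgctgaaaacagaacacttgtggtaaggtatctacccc
Tle3 chr9:61372116-61372415: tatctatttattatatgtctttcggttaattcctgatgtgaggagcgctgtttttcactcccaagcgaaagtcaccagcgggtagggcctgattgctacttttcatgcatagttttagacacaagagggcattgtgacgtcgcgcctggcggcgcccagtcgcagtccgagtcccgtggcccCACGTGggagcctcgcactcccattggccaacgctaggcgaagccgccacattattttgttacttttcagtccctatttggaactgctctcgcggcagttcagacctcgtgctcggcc
Cd80 chr16:38458683-38458982: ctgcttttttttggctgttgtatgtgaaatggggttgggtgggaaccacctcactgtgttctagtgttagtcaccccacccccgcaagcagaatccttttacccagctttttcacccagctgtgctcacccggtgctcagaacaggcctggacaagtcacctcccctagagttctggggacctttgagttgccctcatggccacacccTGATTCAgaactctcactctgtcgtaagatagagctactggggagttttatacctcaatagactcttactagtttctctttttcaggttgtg
The Ccr6 promoter held TTCAAAGAA with its first base at -157 and TTCCAAGAA at -120, the Tle3 promoter held CACGTG at -68, and the Cd80 promoter held TGATTCA at -42. The other 7 of the 10 RefSeq promoters of the members (Ccr6 and Zbtb32 have 2 each) held none of the 4. Among all 32851 mouse promoters of the same length, 8.30% held the STAT type, 7.15% the E-box, 7.81% the AP-1 core and 1.47% the NF-kB type, and a match is only a match of letters. The Hhex window was GC-rich at 75.7%, and that of Ccr6 had 42.3% GC.

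The first comparison asked how the transcripts stood at the height of the anti-DEC-OVA-driven expansion. At 48 h, 5 of the 8 genes were lower in treated than in untreated mice by edgeR's quasi-likelihood test with Benjamini-Hochberg adjustment over all genes, and none was higher. Hhex stood at 0.454 of its untreated level, Pdcd1lg2 at 0.581, Cd38 at 0.583, Nt5e at 0.740 and Tle3 at 0.755. Over the whole transcriptome 47.4% of the 10220 genes tested were called, 26.3% higher and 21.1% lower. The median log2 change was -0.48 over the 8 members and 0.01 over all genes tested. CPM is relative to all UMIs of a mouse. Cells at 48 h had 14860 UMIs on average in treated and 8341 in untreated mice. The 6053 treated and 3924 untreated cells held 670 and 444 UMIs of Cd38, 609 and 409 of Pdcd1lg2 and 2015 and 1044 of Nt5e. They held 541 and 273 UMIs of Tle3 and 101 and 90 of Hhex. The part of depth in the lower CPM was not tested.

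Cd38 had 9.40, 12.5 and 20.6 CPM as lowest, median and highest of the 6 untreated mice at 48 h, and 6.31, 7.40 and 8.23 CPM in the 9 treated mice. Every treated mouse was below every untreated mouse, which held for 4.80% of all genes and for no other member (8.42% of genes had groups that did not overlap in either direction). The log2 change was -0.78 ± 0.14 (SE, adjusted p = 1.77e-05), and -0.88 and -0.70 in the 25-mouse and the 14-mouse pool alone. The gate on CD38 protein was the same in both groups.

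Pdcd1lg2 had 8.34, 12.6 and 15.3 CPM in untreated and 4.69, 7.02 and 8.84 CPM in treated mice. The groups touched only at their edges, and the log2 change was -0.78 ± 0.12 (SE, adjusted p = 1.17e-06). Nt5e had 26.2, 32.1 and 37.9 CPM in untreated and 18, 22.0 and 27.6 CPM in treated mice, with a log2 change of -0.43 ± 0.10 (SE, adjusted p = 0.000474). Here too the highest treated mouse lay just above the lowest untreated mouse.

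Within the 14-mouse pool alone, with 2 untreated and 3 treated mice, Pdcd1lg2 (-0.89, adjusted p = 0.00715) was the only member called at 48 h. Naive or other B cell genes summed to 126 to 245 CPM in treated and 343.5 to 533 CPM in untreated mice, and T cell genes to 0.377 to 4.51 and 5.77 to 10.3 CPM. Of the naive list, Fcer2a alone had 70.9 to 155 CPM and 195 to 307 CPM, whereas S1pr1 had medians of 7.73 and 7.85 CPM. The part of naive and T cell genes in these differences was not tested.

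Among the transcriptional repressors, Hhex had 1.09, 2.86 and 4.41 CPM in untreated and 0.489, 1.23 and 1.84 CPM in treated mice, from as few as 5 UMIs in a mouse. Its log2 change was -1.14 ± 0.34 (SE, adjusted p = 0.00503), and the untreated mice were spread wide enough that their lowest lay among the treated ones. In the 25-mouse pool alone it was -1.44 (adjusted p = 0.00391) and in the 14-mouse pool -0.29 (adjusted p = 0.792). Tle3 had 7.16, 8.29 and 9.23 CPM in untreated and 4.98, 5.61 and 7.34 CPM in treated mice, a log2 change of -0.41 ± 0.13 (SE, adjusted p = 0.00991), with -0.50 and -0.31 (adjusted p = 0.0193 and 0.343) in the same pools. With every cell thinned to equal depth, neither Hhex (-0.74, adjusted p = 0.225) nor Tle3 (-0.48, adjusted p = 0.104) passed the test, whereas Cd38, Nt5e and Pdcd1lg2 did. Zbtb32 behaved differently from both: its 1.58, 2.78 and 3.63 CPM in untreated and 2.22, 3.18 and 3.96 CPM in treated mice overlapped almost entirely (log2 change 0.22 ± 0.21 SE, adjusted p = 0.391).

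Cd80 and Ccr6 did not pass the test at 48 h either. Cd80 had 2.00, 3.28 and 4.41 CPM in untreated and 2.77, 4.01 and 6.02 CPM in treated mice (log2 change 0.42 ± 0.21 SE, adjusted p = 0.0938). In cells with the B1-8hi heavy- and light-chain pairing Cd80 was called higher (0.67, adjusted p = 0.0132), and Tle3 was not called (-0.24, adjusted p = 0.327). Ccr6 had 1.71, 6.14 and 8.77 CPM in untreated and 1.66, 3.63 and 4.68 CPM in treated mice (log2 change -0.52 ± 0.27 SE, adjusted p = 0.109). The treated mice lay close together for Ccr6, and the untreated mice of the 14-mouse pool, at 1.71 and 3.26 CPM, lay among them. In the 25-mouse pool alone the Ccr6 change was -0.87 (adjusted p = 0.00999), and in the 14-mouse pool alone it was 0.37 (adjusted p = 0.671).

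**Figure D1:**
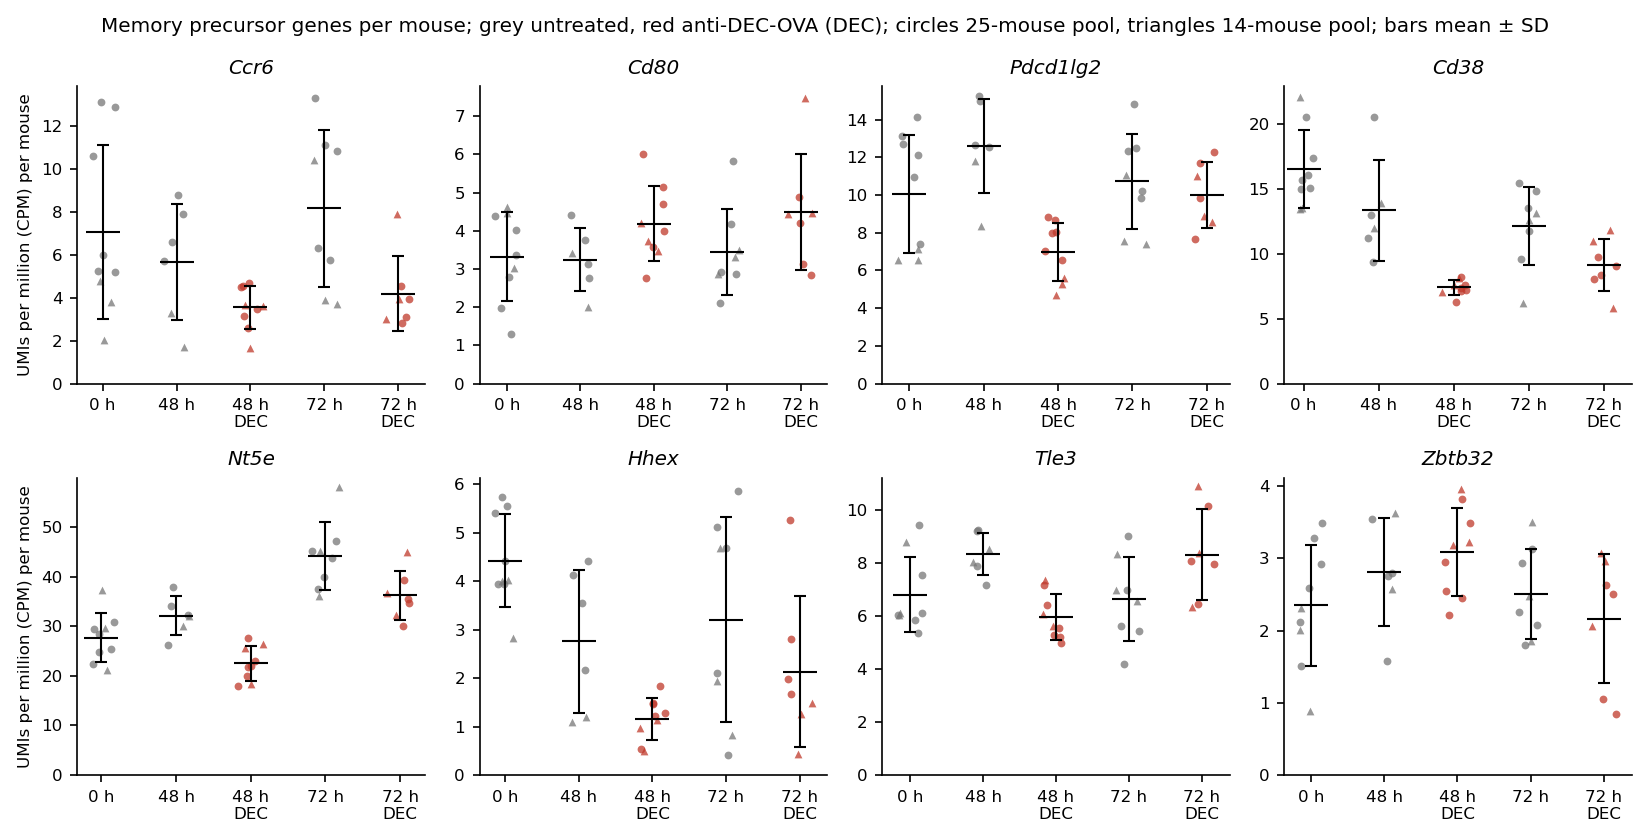
CPM (vertical axes from 0) of each gene in each of 39 mice, by hours and treatment. Points are mice, grey untreated and red treated, circles from the 25-mouse pool and triangles from the 14-mouse pool, and bars give the mean ± SD. The 9 treated mice at 48 h lie below all 6 untreated mice for Cd38, and low for Pdcd1lg2, Nt5e and Hhex, while those of Cd80 and Zbtb32 overlap the untreated mice.

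The Ccr6 values at 48 h moved with the cells that were counted. A few cells in every group carried a UMI of Ccr7, a homing receptor of naive and circulating lymphocytes, or at least 2 UMIs of T cell markers. They were 71 of the 6053 cells of 48 h treated mice (1.17%), 56 of them with Ccr7, and 52 of 3924 (1.325%) in 48 h untreated mice. In the 48 h treated mice these 71 cells held 93 of 318 Ccr6 UMIs (29.25%) and 29 of 101 Hhex UMIs (28.7%). In the 48 h untreated mice the 52 cells held 17 of 181 Ccr6 UMIs (9.39%) and 9 of 90 Hhex UMIs. The share of Ccr6 UMIs in such cells was 0%, 18.4% and 62.2% as lowest, median and highest of the 9 treated mice, and 0%, 8.23% and 19.05% of the 6 untreated mice, so the ranges overlapped. Of Nt5e UMIs only 0.893% in treated and 0.6705% in untreated mice lay in such cells.

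These cells had weak germinal centre marks. In 48 h treated mice 26.8% of them had a UMI of Bcl6, 22.5% of S1pr2 and 50.7% of Mki67, against 84.9%, 77.7% and 91.9% of the other cells, at 11530 and 14900 UMIs per cell. They were chosen after the data were seen, and whether they are germinal centre cells was not tested. Without them Ccr6 fell at 48 h, with a log2 change of -0.88 ± 0.27 (SE, adjusted p = 0.00619), and Hhex fell by 1.47 ± 0.39 on the log2 scale (SE, adjusted p = 0.00182). The other 4 calls remained, against 48.2% of all genes called in the same fit.

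**Figure D2:**
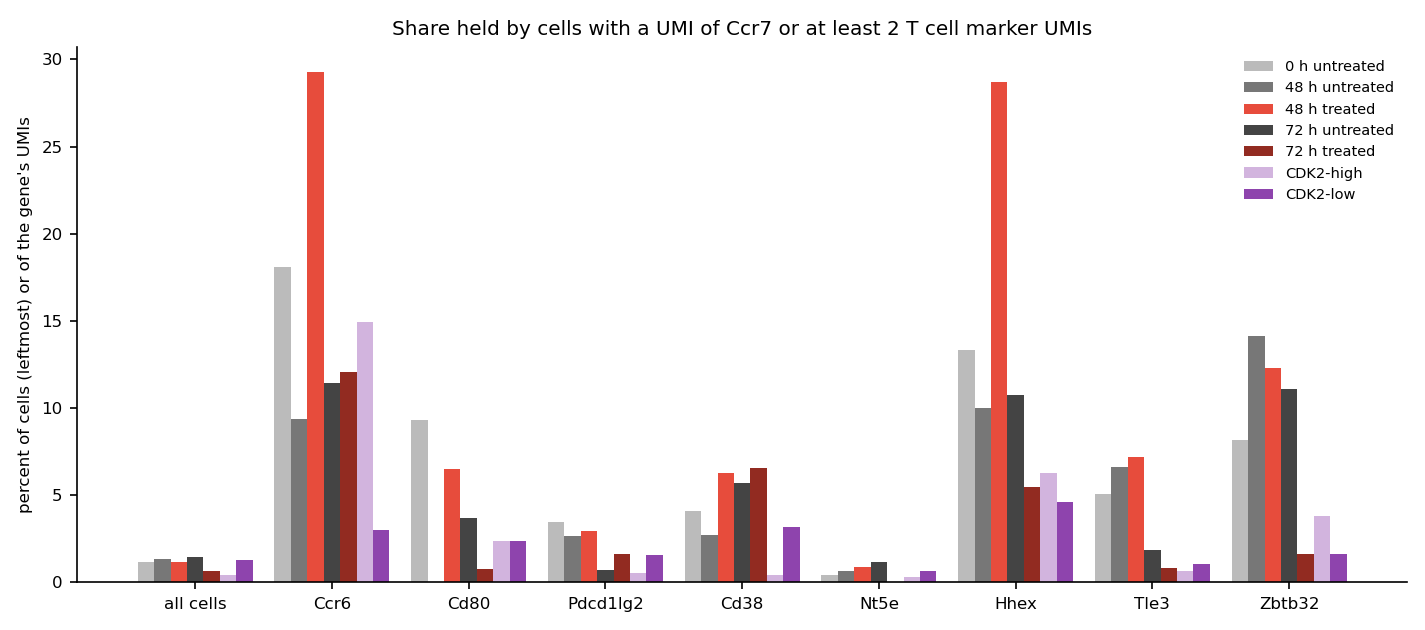
Percent of all cells (leftmost bars) and of each gene's UMIs that lay in cells with a UMI of Ccr7 or at least 2 T cell marker UMIs, by group (vertical axis from 0). In the 48 h treated mice 1.17% of the cells held 29.25% of the Ccr6 and 28.7% of the Hhex UMIs.

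Cells of different cycle phases were present in different shares. By expression-based phase calls, 17.5% to 24.6% of the cells of 48 h treated mice were in G0-G1, against 46.6% to 56.9% in 48 h untreated mice, and at 72 h the range was 38.2% to 57.0% in treated and 39.3% to 56.1% in untreated mice. Within G0-G1 cells alone, a comparison added after the data were seen, 1 of the 6 members tested was called at 48 h, against 9.56% of all genes. This was Ccr6, which was higher in treated mice (log2 change 0.91 ± 0.29 SE, adjusted p = 0.0412). Cd38, with 16.5, 22.6 and 49.1 CPM in G0-G1 cells of untreated and 16.6, 28.5 and 41.4 CPM of treated mice, had a log2 change of 0.11 ± 0.21 (SE, adjusted p = 0.819). Nt5e (-0.285), Pdcd1lg2 (-0.22), Tle3 (-0.18) and Hhex (0.26) were not called there either, with adjusted p from 0.244 to 0.724. When the cells with Ccr7 or T cell markers were also left out, 9.91% of all genes were called, and Ccr6 had a log2 change of 0.43 ± 0.32 (SE, adjusted p = 0.449) and Tle3 one of -0.50 ± 0.22 (SE, adjusted p = 0.137).

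At 72 h, when the share of G0-G1 cells spanned a similar range in both groups, 2 members were called lower and none higher over all cells. This was set against 8.55% of all genes called, 4.67% higher and 3.88% lower. The share of IgM cells differed between the 2 groups, as given with isotype below. Ccr6 had 3.69, 8.37 and 13.3 CPM as lowest, median and highest of the 8 untreated mice and 2.81, 3.96 and 7.91 CPM in the 7 treated mice. The treated mice lay at the low end of the untreated range, and the log2 change was -1.10 ± 0.29 (SE, adjusted p = 0.0121). It was -1.37 (adjusted p = 0.00409) and -0.54 (adjusted p = 0.846) in the 25-mouse and the 14-mouse pool alone, and -0.83 (adjusted p = 0.191) in cells with the B1-8hi heavy- and light-chain pairing. Without the cells with Ccr7 or T cell markers it was -1.14 (adjusted p = 0.00753), against 8.35% of all genes called.

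Cd38 had 6.22, 12.9 and 15.5 CPM in untreated and 5.85, 9.08 and 11.9 CPM in treated mice at 72 h. Its log2 change of -0.49 ± 0.16 (SE) was just past the threshold (adjusted p = 0.0492) and missed it in 10 of 14 other ways of processing. Nt5e had 36.1, 44.4 and 58.0 CPM in untreated and 30.1, 35.5 and 44.9 CPM in treated mice (log2 change -0.30 ± 0.10 SE, adjusted p = 0.0602). Tle3, Cd80, Pdcd1lg2, Hhex and Zbtb32 had log2 changes of 0.25, 0.33, -0.11, -0.55 and -0.29, with adjusted p from 0.323 to 0.723. No member had groups that did not overlap at 72 h, as for all but 0.440% of genes.

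Within G0-G1 cells at 72 h, 3 of the 6 members tested were called, all lower in treated mice, against 9.25% of all genes. Cd38 had 13.5, 28.4 and 40.1 CPM in the G0-G1 cells of untreated mice and 11.4, 12.5 and 28.5 CPM in those of treated mice. The treated mice were mostly at the low end, and the log2 change was -1.01 ± 0.23 (SE, adjusted p = 0.00288). Ccr6 fell from 10.6, 19.5 and 39.7 CPM to 3.37, 6.74 and 13.3 CPM, a log2 change of -1.67 ± 0.33 (SE, adjusted p = 0.000634). Hhex had 0.882, 7.69 and 12.7 CPM in untreated and 1.43, 1.84 and 8.67 CPM in treated mice, a log2 change of -1.16 ± 0.36 (SE, adjusted p = 0.0333). It reached the CPM of the filter in 4 of 8 untreated and 1 of 7 treated mice at 72 h, and in 7 of 9 mice at 0 h and 4 of 9 treated and 1 of 6 untreated mice at 48 h. Nt5e (-0.14), Pdcd1lg2 (-0.29) and Tle3 (-0.063) had adjusted p from 0.389 to 0.909. Without the cells with Ccr7 or T cell markers, Cd38 (-1.07, adjusted p = 0.00279) and Ccr6 (-1.82, adjusted p = 0.000480) remained lower and Hhex (-1.15) had an adjusted p of 0.0614, against 8.45% of all genes.

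**Figure D3:**
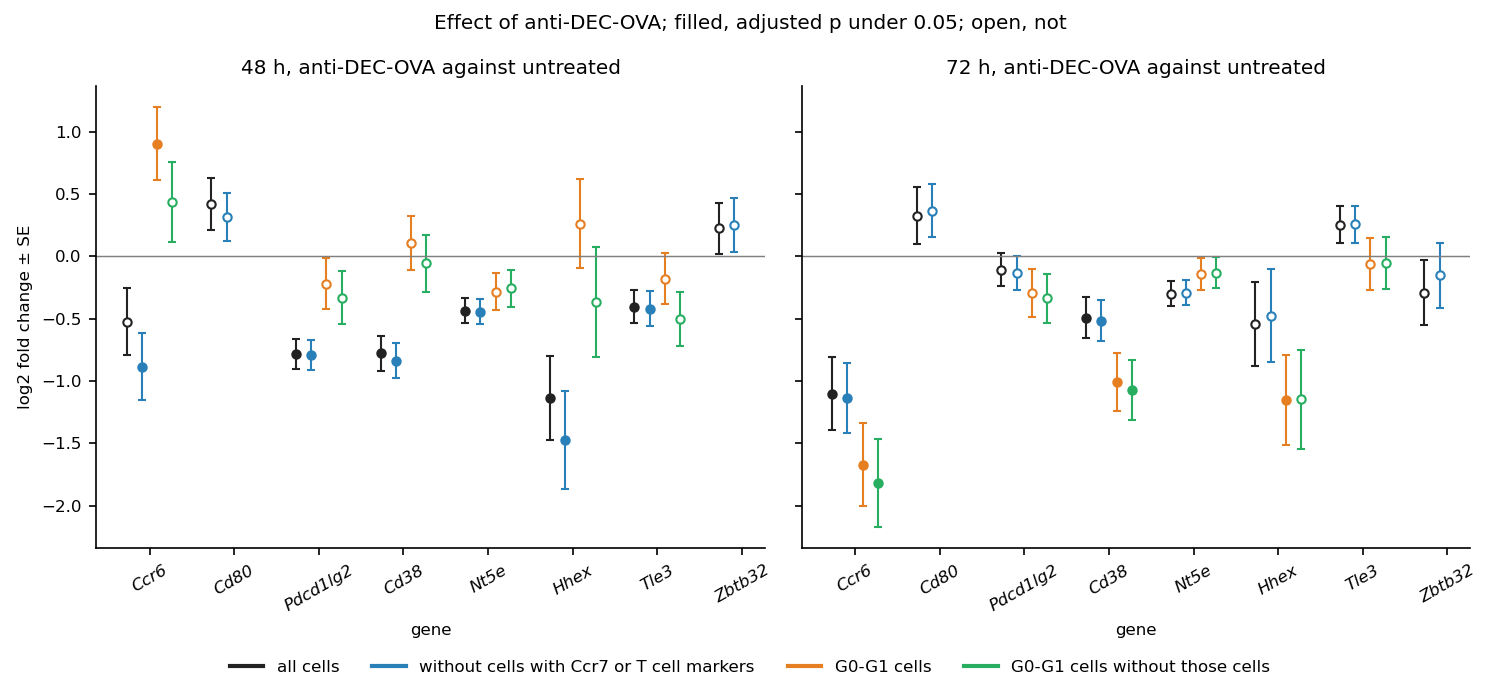
Log2 fold change of treated against untreated mice with its SE (vertical axis) at 48 h and 72 h for each gene, over all cells, without the cells with Ccr7 or T cell markers, in G0-G1 cells, and in G0-G1 cells without those cells. Filled points had an adjusted p under 0.05. The Ccr6 points at 48 h run from -0.88 to 0.91, whereas at 72 h all 4 lie below 0. Cd80 and Zbtb32 did not pass the count filter within G0-G1 cells.

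The difference between the treatment effects at 72 h and at 48 h was tested as an interaction, in which 31.5% of all genes were called, 13.0% higher and 18.5% lower. Tle3 (0.66 ± 0.20 SE on the log2 scale, adjusted p = 0.00873) and Pdcd1lg2 (0.68 ± 0.18, adjusted p = 0.00350) differed, both having been lower in treated mice at 48 h and close to untreated mice at 72 h. For Tle3 the treated mice had 6.33, 8.07 and 10.9 CPM at 72 h against 4.17, 6.77 and 9.01 CPM in untreated mice. The untreated mice also moved, with mean Tle3 of 6.80, 8.34 and 6.64 CPM at 0 h, 48 h and 72 h. Their mean Pdcd1lg2 was 10.1, 12.6 and 10.7 CPM, so both genes were highest in untreated mice at 48 h. For Cd38 (0.29 ± 0.22) and Ccr6 (-0.58 ± 0.40) the difference did not pass the test over all cells. Within G0-G1 cells it was -1.12 for Cd38 (adjusted p = 0.0385) and -2.58 for Ccr6 (adjusted p = 0.000538), against 2.71% of all genes called, whereas Tle3 (0.115, adjusted p = 0.944) and Pdcd1lg2 (-0.075, adjusted p = 0.948) were not called there. Within G0-G1 cells without Ccr7 or T cell markers it was -1.02 (adjusted p = 0.108) and -2.25 (adjusted p = 0.00765), against 1.61% of genes. Over all phases without such cells, Tle3 (0.68, adjusted p = 0.00932) and Pdcd1lg2 (0.66, adjusted p = 0.00455) differed as before, against 32.6% of genes. With cells thinned to equal depth the difference was 0.72 for Tle3 and 0.65 for Pdcd1lg2, about as large as over all UMIs, but did not pass the test (adjusted p = 0.149 and 0.117). In B1-8hi-paired cells it was 0.69 and 0.47 (adjusted p = 0.0659 and 0.1498). In the 25-mouse pool it was 0.88 and 0.61 (adjusted p = 0.0163 and 0.0417) and in the 14-mouse pool 0.40 and 0.93 (adjusted p = 0.496 and 0.0673).

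Within treated mice, 4 members were higher and 1 lower at 72 h than at 48 h. In this comparison, which shares its treated mice with both of those above, 49.1% of genes were called, 22.3% higher and 26.8% lower. Hhex (log2 change 0.91, adjusted p = 0.0297), Nt5e (0.57, adjusted p = 8.46e-06), Pdcd1lg2 (0.46, adjusted p = 0.00261) and Tle3 (0.34, adjusted p = 0.0322) rose relative to all UMIs. In the 25-mouse and the 14-mouse pool alone Hhex had 1.19 and 0.24 (adjusted p = 0.0191 and 0.826) and Tle3 0.46 and 0.24 (adjusted p = 0.0346 and 0.513). In the same pools Pdcd1lg2 had 0.37 and 0.75 (adjusted p = 0.0513 and 0.0142) and Zbtb32 -0.73 and -0.545 (adjusted p = 0.0353 and 0.270). Zbtb32 fell from 2.22, 3.18 and 3.96 CPM to 0.851, 2.50 and 3.08 CPM (log2 change -0.70 ± 0.23 SE, adjusted p = 0.00961). Without the cells with Ccr7 or T cell markers these 5 calls remained, with Hhex at 1.30 (adjusted p = 0.00712) and Zbtb32 at -0.55 (adjusted p = 0.0425), against 49.4% of genes called. With cells thinned to equal depth Nt5e passed (0.41, adjusted p = 0.00334), whereas Hhex (0.77), Pdcd1lg2 (0.22) and Tle3 (0.16) had adjusted p from 0.227 to 0.669, and Zbtb32 was not tested. Within G0-G1 cells, where 5.49% of genes were called, Cd38 (log2 change -1.05, adjusted p = 0.00417) and Ccr6 (-1.95, adjusted p = 0.000212) were lower at 72 h instead. Of the 4 genes that rose over all cells, Hhex (-0.95), Tle3 (-0.37) and Pdcd1lg2 (-0.091) had the other sign there and Nt5e (0.43) the same sign, none of them called (adjusted p from 0.0764 to 0.901). With the cells with Ccr7 or T cell markers also left out, Cd38 and Ccr6 were at -1.02 (adjusted p = 0.0144) and -1.70 (adjusted p = 0.00478), against 3.99% of genes. Cells of treated mice had 14860 UMIs on average at 48 h and 8737 at 72 h. The 6053 cells at 48 h and 3475 at 72 h held 2015 and 1075 UMIs of Nt5e and 609 and 306 of Pdcd1lg2. They held 541 and 244 UMIs of Tle3, 101 and 73 of Hhex and 284 and 62 of Zbtb32. The part of depth in the differences over all cells was not tested.

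Untreated mice gave the time course without anti-DEC-OVA. From 0 h to 72 h only Nt5e passed the test among the members, against 4.41% of all genes, 1.79% higher and 2.62% lower. It rose from 21.1, 28.5 and 37.3 CPM in 9 mice to 36.1, 44.4 and 58.0 CPM in 8 mice, and only the edges of the groups overlapped (log2 change 0.69 ± 0.10 SE, adjusted p = 1.89e-05). Cd38 went from 13.5, 15.7 and 22.2 CPM to the 72 h values given above (log2 change -0.43 ± 0.13 SE, adjusted p = 0.0519). The other 6 had log2 changes of -0.34 to 0.29. The share of IgM cells also differed between these groups, as given with isotype below.

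The CDK2 populations of the same mice differed in every member. All 8 genes passed the test, 6 higher and 2 lower in CDK2-low cells. Hhex and Ccr6, among the higher ones, passed the count filter through CDK2-low cells, as given below. The background was also large, with 75.1% of 10120 genes called, 38.6% higher and 36.5% lower. The median log2 difference was 0.82 over the members and 0.02 over all genes tested. Germinal centre markers summed to 1829 to 2024 CPM in CDK2-high and 1880 to 2264 CPM in CDK2-low cells. Among them Bcl6 (226 to 271 against 372 to 432 CPM), Fas and S1pr2 were higher and Gcsam (335 to 413.5 against 246 to 297 CPM) lower in CDK2-low cells without overlap. The naive or other B cell list (Fcer2a, Ccr7, Klf2, S1pr1, Cr2, Cd55 and Gpr183) summed to 159 to 266 CPM in CDK2-high and 415 to 676 CPM in CDK2-low cells. Within it Fcer2a alone had 77.7 to 146 CPM and 284 to 416 CPM, whereas S1pr1 had medians of 5.34 and 5.01 CPM. The T cell list (6 of its 8 genes counted, with Icos at 0 in CDK2-high cells) summed to at most 1.55 CPM in CDK2-high and to 0.364 to 55.2 CPM in CDK2-low cells. Without the cells with Ccr7 or T cell markers all 8 calls remained, against 75.3% of genes. Within the cells on the dark-zone side of the zone score the 5 members that passed the count filter were called in the same directions: Cd38, Tle3, Nt5e and Pdcd1lg2 higher and Cd80 lower, against 70.0% of genes. Hhex and Ccr6 reached the CPM that the filter on low counts asked for in 2 and 4 of the 7 CDK2-high samples and in all 7 CDK2-low samples, so they passed it through the population where they were higher and are given with no p. With no filter on low counts all 8 members were called as well, against 50.3% of genes.

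Hhex had 0.176, 0.686 and 1.40 CPM as lowest, median and highest of 7 mice in CDK2-high and 1.79, 4.002 and 8.22 CPM in CDK2-low cells. It was higher in CDK2-low cells in 7 of 7 mice, although the lowest CDK2-high value was 1 UMI. The log2 difference was 2.08 ± 0.25 (SE). Tle3, the corepressor, had 5.64, 6.34 and 9.67 CPM against 11.5, 15.4 and 20.5 CPM (log2 difference 0.88 ± 0.09 SE, adjusted p = 1.11e-09). Zbtb32 went the other way, from 2.21, 2.56 and 4.40 CPM to 1.56, 2.06 and 3.05 CPM, lower in 6 of 7 mice with overlapping groups (log2 difference -0.63 ± 0.17 SE, adjusted p = 0.00169).

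Ccr6 had 1.05, 1.23 and 2.19 CPM in CDK2-high and 3.05, 4.95 and 9.52 CPM in CDK2-low cells, and the groups did not overlap. The log2 difference was 1.74 ± 0.19 (SE). Of its UMIs, 14.9% in CDK2-high and 3.01% in CDK2-low cells lay in cells with Ccr7 or T cell markers, and the difference without them was 1.94. Cd38 had 2.99, 5.36 and 7.40 CPM against 10.3, 12.2 and 19.0 CPM, again without overlap (log2 difference 1.02 ± 0.12 SE, adjusted p = 2.00e-08), in cells that were all sorted as CD38-.

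Among the surface proteins of memory subsets, Nt5e had 27.02, 35.2 and 36.8 CPM in CDK2-high and 39.7, 55.7 and 68.2 CPM in CDK2-low cells (log2 difference 0.54 ± 0.05 SE, adjusted p = 2.27e-10). Pdcd1lg2 had 3.34, 6.76 and 8.10 CPM against 11.1, 12.4 and 14.6 CPM (log2 difference 0.75 ± 0.10 SE, adjusted p = 3.35e-07). Both were higher in 7 of 7 mice without overlap of the groups, which held for 6 of the 8 members and 32.9% of all genes (47.2% in either direction). The 6 include Hhex and Ccr6, which passed the count filter through CDK2-low cells. Cd80, by contrast, had 1.65, 3.57 and 4.40 CPM against 2.06, 2.86 and 3.30 CPM and was lower in 6 of 7 mice (log2 difference -0.56 ± 0.15 SE, adjusted p = 0.00151). The log2 differences rest on counts scaled between samples (TMM), and the CPM do not. The median CPM ratio of CDK2-low to CDK2-high cells was 0.77 for Cd80 and 0.81 for Zbtb32. The 7448 CDK2-high and 4385 CDK2-low cells held 297 and 167 UMIs of Cd80 and 238 and 122 of Zbtb32.

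**Figure D4:**
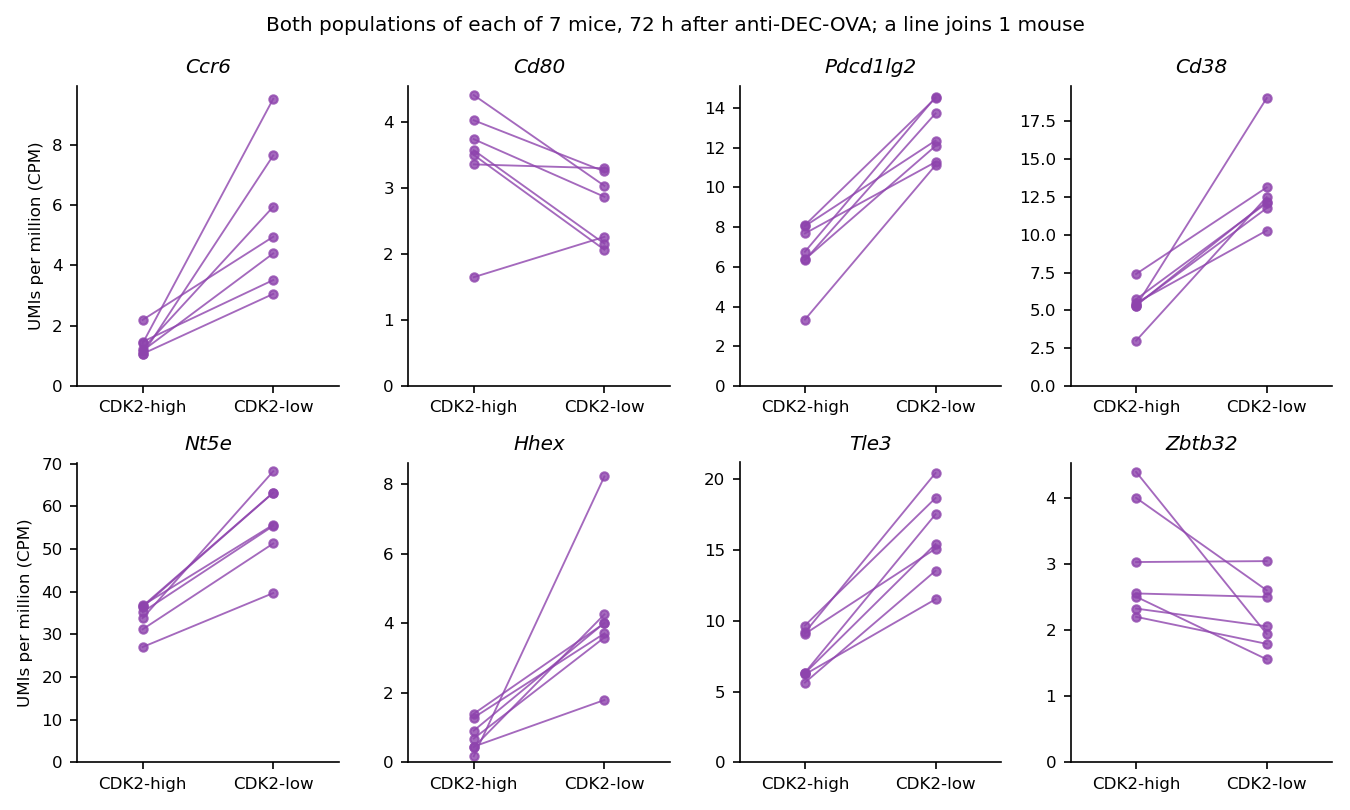
CPM of each gene (vertical axes from 0) in CDK2-high and CDK2-low cells of the same 7 mice, joined by a line per mouse. Lines rise in all 7 mice for Ccr6, Pdcd1lg2, Cd38, Nt5e, Hhex and Tle3, and fall in 6 of 7 for Cd80 and Zbtb32.

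The CDK2-low population held more cells called G0-G1, 52.7% to 63.2% per mouse against 12.6% to 19.1% of CDK2-high cells. Within G0-G1 cells 5 members passed the count filter and were higher in CDK2-low cells, against 62.0% of genes called. Ccr6 reached the CPM of the filter in 2 of 7 CDK2-high and 6 of 7 CDK2-low samples and is given with no p, at a log2 difference of 1.21. The difference was 1.14 for Tle3 (adjusted p = 1.11e-08), 1.13 for Cd38 (adjusted p = 1.50e-07), 0.60 for Nt5e (adjusted p = 4.60e-08) and 0.58 for Pdcd1lg2 (adjusted p = 0.00400). With the cells with Ccr7 or T cell markers also left out, 4 were tested and called, against 62.5% of genes, and Ccr6 did not pass the count filter.

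Shares of cells were compared at equal depth, after thinning each cell to 5260 UMIs in the CDK2 sort and leaving out 930 CDK2-high and 253 CDK2-low cells that were shallower. The median share of cells with a Tle3 UMI was 4.199% in CDK2-high and 7.60% in CDK2-low cells, and before thinning 6.49% and 15.9%. For Cd38 it was 3.10% and 5.34% (5.44% and 12.2% before), for Ccr6 0.665% and 2.29% (0.922% and 4.32% before) and for Hhex 0.563% and 1.72% (0.834% and 4.19% before). For Pdcd1lg2 it was 3.80% and 5.54%, for Nt5e 15.1% and 22.7%, for Cd80 1.87% and 1.17% and for Zbtb32 1.28% and 1.07%. At least 2 of the 8 genes were seen in 2.94% of CDK2-high cells and in 7.60% of CDK2-low cells at equal depth (medians of 7 mice), with ranges of 2.12% to 3.66% and 5.43% to 8.69% that did not overlap. Whether these shares exceed what the single-gene shares above would give was not tested.

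T-like cells, with at least 4 T cell marker UMIs, were counted for comparison, and are not cells known to lack these transcripts. In the time course 74 such cells had a median of 3555 UMIs, against 7621 in the other 23624 cells. A UMI of Zbtb32 was in 0 of 74, which allows a share of up to 4.05%, and 1.35% had a UMI each of Ccr6, Hhex, Cd80 and Pdcd1lg2, 1 cell for each gene. For Pdcd1lg2 the other cells had 8.02%, for Cd38 8.54% against 2.70%, for Ccr6 3.20% and for Hhex 2.10%. Tle3 was in 16.2% and Nt5e in 10.8% of the T-like cells, against 6.08% and 20.03% of the other cells. In the CDK2 sort, 20 such cells (median 7265 UMIs) had 1 cell each with Ccr6, Hhex and Pdcd1lg2 and none with Cd38. For Ccr6, Hhex, Cd80 and Zbtb32 these small numbers do not separate the shares of T-like and other cells. Whether the T-like shares are background was not tested. Intervals from counts cover counting error only.

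In the time course, thinning to 2871 UMIs left out 281 to 701 cells per group. At 48 h the median share of cells with a Pdcd1lg2 UMI was then 4.67% in untreated and 2.19% in treated mice, although before thinning it was 10.1% in both. For Cd38 it was 3.69% and 2.93% (7.86% and 9.04% before), and for Nt5e 9.21% and 7.44% (19.1% and 22.4% before). The unthinned shares of the 48 h treated mice came from cells with 14860 UMIs on average, and they ran against the CPM for Cd38 and Nt5e. For Hhex it was 0.7095% and 0.372%, both below the unthinned 1.35% (1 of 74) of the T-like cells. The thinned share was higher in treated mice for Zbtb32 (0.354% and 0.745%) and Cd80 (0.684% and 0.954%). At 72 h the thinned median share was 1.79% in untreated and 0.898% in treated mice for Ccr6 and 3.46% and 2.27% for Cd38, with overlapping ranges in each case, and before thinning 4.10% and 2.35% for Ccr6 and 7.55% and 6.63% for Cd38. In untreated mice the thinned median share of Nt5e was 7.37% at 0 h and 12.01% at 72 h (16.8% and 23.1% before).

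Within untreated mice the cells were ordered by a score of light-zone minus dark-zone genes, in which no member took part, and the top and bottom terciles were compared within each of 23 mice. Of the 5 members that passed the count filter, 4 were higher and 1 lower in light-zone cells, against 63.6% of 8627 genes called, 32.5% higher and 31.0% lower. The 4 include Ccr6 and Tle3, which passed the filter through light-zone cells, as given below. Hhex, Zbtb32 and Cd80 did not pass it. With no filter on low counts 7 of the 8 were called, against 41.6% of genes, and in cells thinned to equal depth Cd38 and Nt5e, against 51.8%. Near the 2 cuts of the score, within 0.1, lay 2644 of 14170 cells (18.7%).

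Ccr6 and Tle3 passed the filter through the light-zone class, reaching its CPM in 0 and 1 of 23 dark-zone sums, and are given with no p. Ccr6 had 0, 0.533 and 4.39 CPM in dark-zone and 4.72, 16.4 and 42.6 CPM in light-zone cells, with no overlap of the classes, as for 3.25% of all genes, and a log2 difference of 4.62 ± 0.19 (SE). Tle3 had 1.44, 3.08 and 6.25 against 2.84, 12.6 and 19.5 CPM (log2 difference 1.90 ± 0.14 SE). Cd38 had 3.98, 8.50 and 16.3 against 9.54, 22.9 and 38.8 CPM (log2 difference 1.33 ± 0.10 SE, adjusted p = 4.65e-16). Pdcd1lg2 was higher in 18 of 23 mice (log2 difference 0.59 ± 0.11 SE, adjusted p = 5.52e-06).

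Nt5e stood alone as a dark-zone gene among the 5. It had 30.2, 47.4 and 72.3 CPM in dark-zone and 7.15, 18.3 and 29.3 CPM in light-zone cells, lower in the light zone in 23 of 23 mice, with no overlap of the classes (log2 difference -1.32 ± 0.08 SE, adjusted p = 1.54e-20). Hhex, given as values only, had a median of 0.413 CPM in dark-zone and 9.81 CPM in light-zone cells and was higher in the light zone in 23 of 23 mice. Zbtb32 was higher there in 17 and Cd80 in 14 of 23 mice. In the 16 treated mice, where 54.9% of genes were called, the same 4 were higher and Nt5e lower, with log2 differences of 5.04 (Ccr6), 1.59 (Tle3), 1.02 (Cd38), 0.70 (Pdcd1lg2) and -1.19 (Nt5e), and Cd80 had 0.13 (adjusted p = 0.573).

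By cycle phase, the 5 members that passed the filter were all higher in G0-G1 than in S and G2-M cells of the same 23 mice, against 79.9% of 8837 genes called, 42.8% higher and 37.2% lower. The log2 difference was 2.73 ± 0.13 (SE) for Ccr6 and 1.01 ± 0.11 for Tle3, which reached the CPM of the filter in 1 and 9 of 23 cycling sums and are given with no p. It was 1.72 ± 0.11 for Cd38 (adjusted p = 3.58e-18), 0.83 ± 0.09 for Pdcd1lg2 (adjusted p = 2.29e-11) and 0.43 ± 0.07 for Nt5e (adjusted p = 1.78e-07). Nt5e was thus higher in dark-zone cells and in G0-G1 cells. Hhex had medians of 1.77 CPM in cycling and 7.28 CPM in G0-G1 cells and was higher in 23 of 23 mice. Cd80 (2.50 in G0-G1 and 3.57 CPM in cycling cells) and Zbtb32 (1.77 and 2.72 CPM) had lower medians in G0-G1 cells, in 15 and 14 of 23 mice. In the 16 treated mice Zbtb32 was higher in G0-G1 cells in 11 and Cd80 lower in 9, while the other 6 members were higher in 14 to 16. Hhex, Cd80 and Zbtb32 did not pass the filter on low counts, without which all 8 members were called, against 51.2% of genes, as they were with DESeq2, against 66.7% of those it gave an adjusted p. In cells thinned to equal depth Cd38, Nt5e and Pdcd1lg2 were called, against 70.6% of genes.

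**Figure D5:**
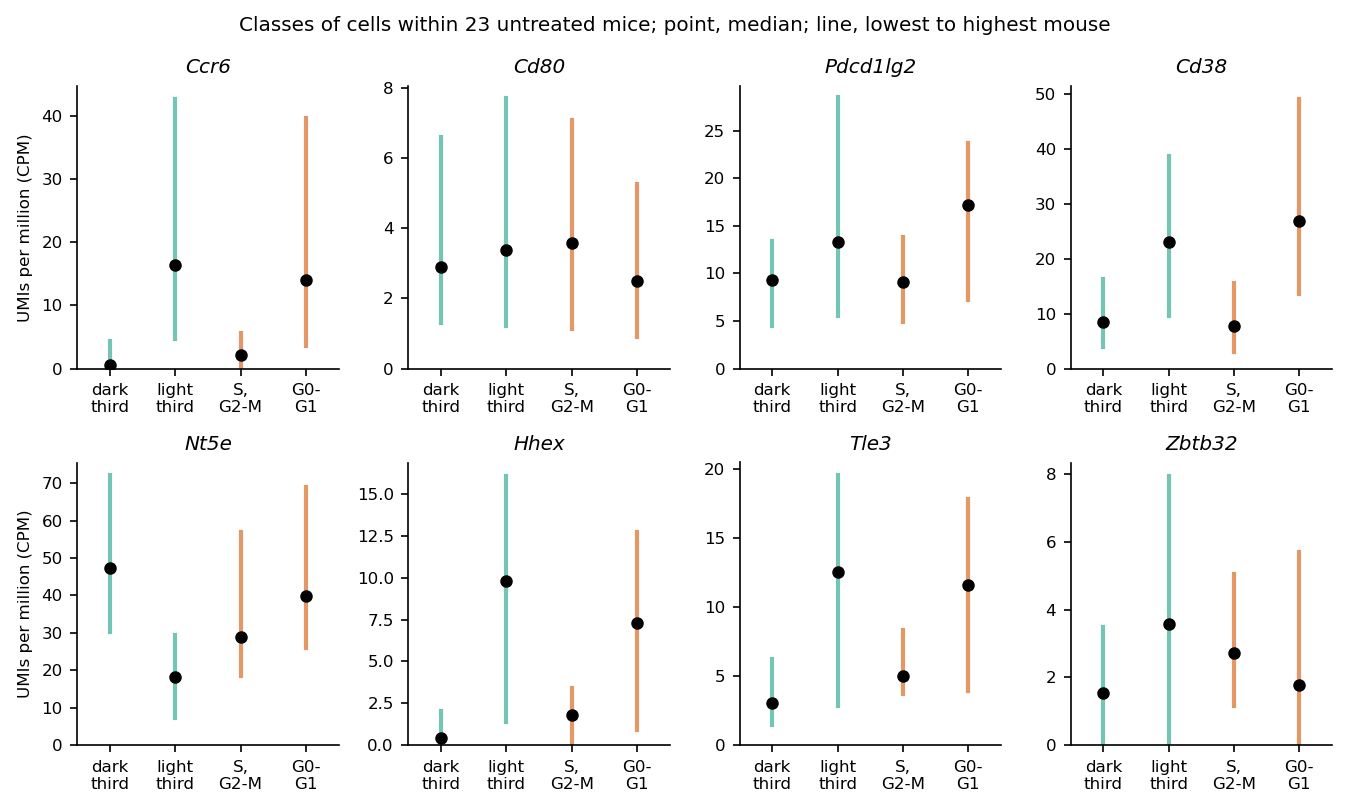
CPM of each gene (vertical axes from 0) in 4 classes of cells within 23 untreated mice: dark- and light-zone terciles (green) and cycling and G0-G1 cells (orange). Points are medians over mice and lines run from the lowest to the highest mouse. Ccr6, Hhex, Tle3 and Cd38 have higher medians in light-zone and G0-G1 cells, and Nt5e has its lowest values in light-zone cells.

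Single cells with a UMI of a member were counted by class at equal depth. Of all 12378 thinned cells of untreated mice 33.4% lay in the light-zone tercile, but 78.4% of the 245 cells with a Ccr6 UMI, 79.1% of the 158 with Hhex, 57.7% of the 293 with Tle3 and 50.9% of the 497 with Cd38 did. Of the 1171 cells with an Nt5e UMI 19.8% did. G0-G1 cells were 44.5% of all, 82.0% of those with Ccr6, 77.9% with Hhex and 69.2% with Cd38, but 33.9% of those with Zbtb32 and 31.6% of those with Cd80.

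Members were also seen together in cells. In untreated mice 14.7% of the cells with a Ccr6 UMI had a Cd38 UMI, against 3.80% of the cells without, and 10.2% had a Hhex UMI, against 1.10%. A Nt5e UMI was in 6.12% of cells with and 9.53% of cells without Ccr6. In CDK2-low cells 17.9% of the 95 cells with Ccr6 had a Tle3 UMI, against 7.90% of the others, and 6.32% had Nt5e, against 22.2%. These shares come from few cells of the same libraries and are given as a description.

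Isotype was read from the heavy-chain contig of each cell, and switched cells were compared with IgM cells of the same 23 untreated mice. Of all genes 18.8% were called, 9.14% higher and 9.66% lower, and of the 3 members that passed the filter Nt5e and Cd38 were lower in switched cells. Nt5e had 15.8, 38.6 and 77.8 CPM in IgM and 11.9, 23.5 and 41.8 CPM in switched cells, lower in 21 of 23 mice (log2 difference -0.57 ± 0.08 SE, adjusted p = 2.06e-07). It was -0.63 in the 25-mouse pool (adjusted p = 4.13e-06) and -0.44 in the 14-mouse pool (adjusted p = 0.0515), where it was not called. In 11 treated mice the difference for Nt5e was -1.28 (adjusted p = 1.67e-09), against 6.68% of genes called, and 11 of 11 mice had it. Cd38 was lower in 16 of 23 untreated mice (log2 difference -0.45 ± 0.14 SE, adjusted p = 0.0203), but was not called in the 25-mouse pool (-0.35, adjusted p = 0.184) or the 14-mouse pool (-0.72, adjusted p = 0.0620) alone, and did not pass the count filter in treated mice. Pdcd1lg2 had -0.02 ± 0.14 (adjusted p = 0.943). Isotype shares also differed between groups, counted over the pooled cells with an isotype call and without Ccr7 or T cell markers. IgM cells were 18.1%, 23.4% and 51.4% of these in untreated mice at 0 h, 48 h and 72 h. In treated mice they were 8.97% at 48 h and 10% at 72 h. Ccr6, which did not pass the filter, was lower in switched cells in 12 and higher in 10 of 23 untreated mice. In treated mice it was lower in 9 and higher in 2 of 11. The part of isotype in the differences of Nt5e, Cd38, Ccr6 and the other members between groups was not tested.

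Other genes of memory B cells were followed as a list of 13, among them the migration receptors Gpr183, S1pr1 and Ccr7, the transcription factors Bach2, Klf2 and Foxp1, and the survival gene Bcl2. At 48 h 9 of the 12 tested were lower in treated mice and none higher, against 21.1% of all genes called lower, and the median log2 change was -0.63. Cd55, an inhibitor of complement, had -1.30, Gpr183, a receptor for oxysterols, -1.11, Klf2 -0.81 and Bcl2 -0.70. At 72 h 5 of 12 were lower and none higher, against 3.88% of all genes lower, with the cytokine receptor Il9r at -1.24, Cd55 at -1.12, Bcl2 at -1.07 and Gpr183 at -0.885. In the first experiment none of the 10 tested was higher and 1 was lower in treated mice, against 1.95% of genes called, and the median log2 change was 0.24, of the other sign. In CDK2-low against CDK2-high cells 9 of the 10 tested were higher and none lower, against 38.6% of all genes higher, led by Gpr183 (1.25), Il9r (1.18), Foxp1 (0.97) and Cd55 (0.93). In G0-G1 against S and G2-M cells all 10 tested were higher, against 42.8% of all genes, and 5 of 8 were higher and 3 lower in the light zone, against 32.5% and 31.0%, where Foxp1, a gene of the zone score, was not counted. Of the 7 genes of the naive B cell list 5 are in this list as well, and Ccr7 chooses the cells left out above.

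Partners and paralogs of the members formed a list of 15. At 48 h 5 of 9 tested were lower and 1 higher in treated mice, with 47.4% of all genes called in either direction: Cd274 (PD-L1, which shares the receptor PD-1 with PD-L2) had -1.06 and Cd86 (which shares CD28 and CTLA-4 with CD80) had -0.82, and Ada, which removes the adenosine that CD73 makes, had 0.33. In CDK2-low cells 6 of 8 were higher and 1 lower, a share near the 75.1% of all genes called, with Cd86 at 1.10, Cd274 at 0.66 and Bcl6 at 0.49 on the log2 scale, and Ada at -0.45. Cd86 and Cd80 thus differed in direction between the CDK2 populations, at 1.10 and -0.56.

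Over the 39 time-course mice, after the mean of each pool was removed, the genes whose log2 CPM followed a member most closely among 8131 genes were Gpr183 for Ccr6 (Pearson's r = 0.68), Zmynd11 for Cd38 (0.81), Rhof for Hhex (0.77) and Wipf1 for Tle3 (0.60). They were Arhgap6 for Nt5e (0.80), Ifi30 for Pdcd1lg2 (0.74), the histone gene H4c16 for Zbtb32 (0.67) and Nfyc for Cd80 (0.55). Among the members themselves the highest values were those of Cd38 with Hhex (0.51) and with Ccr6 (0.47), and the lowest that of Cd38 with Cd80 (-0.38). The mice share libraries and groups, and these values are a description.

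The first experiment was far shallower, and 0 of the 6 members tested passed edgeR's test in either comparison. DESeq2 called 0 as well, and at an unadjusted p under 0.05 edgeR had 4 for treatment and 2 for time, against 11.9% and 8.50% of all genes. Of 9078 genes tested 1.95% were called for treated against untreated mice at 10 dpi and 0.650% for 10 against 7 dpi in untreated mice, and Zbtb32 and Cd80 did not pass the filter. Cd38 had 8.58, 10.5 and 10.5 CPM in the 3 untreated and 3.33, 5.08 and 7.77 CPM in the 3 treated mice at 10 dpi, without overlap, as for 17.1% of all genes (log2 change -0.94 ± 0.33 SE, adjusted p = 0.179). Nt5e had 12.5, 13.8 and 15.99 CPM at 7 dpi and 20.1, 31.0 and 57.2 CPM at 10 dpi in untreated mice, without overlap, as for 13.1% of all genes (log2 change 1.11 ± 0.28 SE, adjusted p = 0.0625). Hhex had 5.71, 7.61 and 9.52 CPM in treated and 2.19, 3.83 and 11.4 CPM in untreated mice at 10 dpi (log2 change 1.08 ± 0.46 SE, adjusted p = 0.317), and its highest untreated value came from 4 UMIs. Tle3 had 10.2, 11.6 and 15.8 CPM in treated and 2.86, 5.75 and 9.62 CPM in untreated mice, without overlap either (log2 change 0.68 ± 0.31 SE, adjusted p = 0.376). The median log2 change of the 6 members with treatment was 0.55, against -0.002 over all genes, and thus had the other sign than the medians of the 8 members for treatment at 48 h and at 72 h in the time course (-0.48 and -0.29). Members went both ways: Cd38 and Nt5e (-0.61 ± 0.24 SE, adjusted p = 0.255) fell, and Tle3, Ccr6, Pdcd1lg2 and Hhex rose.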

How the data were processed

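Single-cell libraries (10X 5′ kits with hashtag antibodies that mark each mouse) held germinal centre B cells of pooled mice. The deposited matrices hold UMI counts per gene and cell, made by the authors with Cell Ranger (8.0.1 per the file headers, 7.1.0 for the first experiment, and 6.0.1 in the submitters' processing notes) on mm39 and not normalised, and the deposited contig tables give UMI counts for each assembled receptor chain. The authors' lists pair hashtag numbers with mouse names and conditions, which gave the groups. Columns of per-sample values left unused numbered 0. A second pool of the first experiment, with hashtags and contigs, was not used here.

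Cells were given to a mouse by the HTODemux rule (quantile 0.99), which also dropped cells with tags of several mice; doublets within a mouse remained. A cell was kept if it had 200 genes or more and less than 10% of its UMIs from mitochondrial genes, which removed 3114 of 13187 assigned cells of the 14-mouse pool and at most 351 in any other. Counts were summed per mouse and fitted with edgeR 4.0.16 in R 4.3.3 (filterByExpr, TMM, quasi-likelihood F-test, Benjamini-Hochberg over all genes tested, threshold 0.05). All 5 time-course groups entered 1 fit with a term for the pool. The CDK2 populations were fitted with the mouse as a block, since the same mouse names in the authors' lists mark both populations of an animal; 2 of 9 listed mice had no hashtag signal. Zone, phase and isotype classes needed at least 20 cells per mouse and class and were also blocked by mouse. Phases were called with Seurat 5.3.0. Thinning drew 2871 UMIs per cell in the time course and 5260 in the CDK2 sort. The fitting steps were tested on simulated data.

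The named genes are the 8 members in every comparison, the largest changes past the threshold in 2 gene lists (other memory B cell genes, and partners and paralogs of the members) with genes whose role bears on a member, and for likeness the 3 genes with the highest Pearson correlation, of which the first is given. The members and lists were chosen with earlier results of these data known. A few listed genes are not reported here and stayed out of the lists and marker sums. Alternatives were DESeq2 1.42.0 and its size factors, no filter on genes or cells, no pool term, B1-8hi-paired cells, highest hashtags, thinned cells, each pool alone and other sets of mice. Each mouse was left out in turn only in the CDK2 sort and the first experiment. Leaving out cells with Ccr7 or T cell markers and taking G0-G1 cells alone were added after seeing the data.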

Additional observations from a re-analysis of the deposited data

Results flagged for a closer look

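Single mice stood apart from their group in 6 of the 56 groups of 4 to 10 mice examined by the gap to the nearest mouse over the range, where chance gives about 1 in 20. Ccr6 had 7.91 CPM in 1 of the 7 treated mice at 72 h, against 4.54 CPM in the next, and 2.19 CPM in 1 CDK2-high sample, against 1.46 CPM. Among the CDK2-high samples, the lowest had 1.65 CPM of Cd80 (next 3.35) and the lowest had 3.34 CPM of Pdcd1lg2 (next 6.34). Among the CDK2-low samples, the highest had 19.0 CPM of Cd38 (next 13.1) and the highest had 8.22 CPM of Hhex (next 4.26).

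The effect of anti-DEC-OVA differed between 72 h and 48 h by 0.66 on the log2 scale for Tle3 and by 0.68 for Pdcd1lg2, by the interaction test over 39 mice given above. Neither was called in G0-G1 cells (0.115 and -0.075), thinned cells, B1-8hi-paired cells or the 14-mouse pool.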

How the results depend on the processing

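Of 881 values of members under other settings, 757 kept direction and call, 57 lost and 17 gained the call, and 50 changed sign; causes were not tested. For CDK2-low against CDK2-high 132 of 132 kept both, and without the mouse as a block the 8 calls remained (7052 genes called; Ccr6 1.81, Hhex 2.18). Leaving out each mouse gave 7199 to 7566 genes and 8 to 8 members there, 55 to 235 genes and 0 to 2 members for treatment in the first experiment, and 7 to 82 genes and 0 to 1 members for its time. Members called in the CDK2 sort were 5 on the dark-zone side and in G0-G1 cells, and 4 in G0-G1 cells without Ccr7 or T cell markers ("without markers" here). Counts for the CDK2 sort include Hhex and Ccr6 where they passed the count filter through CDK2-low samples.

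Genes called at 48 h were 2680 with no pool term, 3161 thinned, 2149 in the 14-mouse pool, 854 in G0-G1 cells and 881 in G0-G1 cells without markers, with 3 members thinned, 1 in the 14-mouse pool and in G0-G1 cells, and 0 in G0-G1 cells without markers. At 72 h they were 217 with no pool term, 414 thinned and 22 in the 14-mouse pool; members called were 0 with no pool term, in B1-8hi-paired cells and in the 14-mouse pool, and 1 with DESeq2, its size factors, no filter on low counts, highest hashtags, thinned cells, the 25-mouse pool and the 2 groups alone. For 72 h against 48 h in treated mice they were 3104, 2718 and 2661 in that order, 490 in G0-G1 cells and 355 in G0-G1 cells without markers, with 3 members (no pool term, paired cells), 1 (thinned) and 2 (14-mouse pool, G0-G1, G0-G1 without markers). For 72 h against 0 h they were 77, 195 and 3, then 256 with the 2 groups alone, 182 and 193, with 2 members under DESeq2, paired cells, highest hashtags and without markers and 0 in the 14-mouse pool. For the difference of effects they were 1222, 1709 and 768, 1984 in paired cells, 242 and 143, with 1 member (no pool term, G0-G1 without markers) and 0 (paired, thinned, 14-mouse pool).

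Thinned cells gave 3415 genes and 2 members between zones, 3 members between phases (against 70.6% of genes), and 739 genes and 1 member between isotypes. Between phases 8 members were called with no filter on low counts and with DESeq2, against 51.2% and 66.7% of genes. Isotype gave 500 genes and 1 member in treated mice, 1044 and 1 in the 25-mouse pool, and 489 and 0 in the 14-mouse pool. The first experiment gave 85 and 32 genes with DESeq2, 280 and 116 with no filter on low counts (1 member each, Nt5e) and 27 and 1 in paired cells, for treatment and time.

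Signs changed as follows, in log2. At 48 h: Ccr6 0.37 (14-mouse pool), 0.91 (G0-G1) and 0.43 (G0-G1 without markers), Cd38 0.11 and Hhex 0.26 (G0-G1), Zbtb32 -0.021 (paired). At 72 h: Tle3 -0.063 (G0-G1) and -0.056 (G0-G1 without markers), Pdcd1lg2 0.046 (14-mouse pool). For 72 h against 48 h, thinned: Ccr6 -0.57, Cd38 -0.34; in G0-G1: Ccr6 -1.95, Cd38 -1.05, Hhex -0.95, Tle3 -0.37, Pdcd1lg2 -0.091; in G0-G1 without markers: Ccr6 -1.70, Cd38 -1.02, Hhex -0.31; Ccr6 -0.12 in the 25-mouse pool; Cd80 0.005 (DESeq2), 0.006 (size factors, highest hashtags, the 2 groups alone), 0.06 (no filter on cells), 0.38 (14-mouse pool) and 0.054 (without markers). For 72 h against 0 h: Hhex 0.038 (thinned), Tle3 0.067 (no filter on cells), 0.052 (14-mouse pool) and 0.025 (G0-G1 without markers), Zbtb32 -0.05 (no filter on cells), -0.20 (25-mouse pool) and -0.033 (without markers), Cd80 -0.019 (highest hashtags) and -0.38 (14-mouse pool). For the difference of effects: Cd80 0.049 (without markers), Cd38 -0.12 (thinned), -1.12 (G0-G1) and -1.01 (G0-G1 without markers), Hhex -0.98 (14-mouse pool), -1.42 (G0-G1) and -0.78 (G0-G1 without markers), Cd80 0.15 (14-mouse pool), Pdcd1lg2 -0.075 (G0-G1) and -0.004 (G0-G1 without markers). In the first experiment, with each mouse left out, the treatment change ran from -0.13 to 0.92 for Ccr6 (below 0 without the untreated mouse 5 and, at -0.10, the treated mouse 8) and from -0.11 to 1.02 for Pdcd1lg2, and the time change of Pdcd1lg2 from -0.81 to 0.32 (signs changed without mouse 5). Without mouse 8 both Cd38 and Nt5e were called for treatment, and without mouse 8 or mouse 10 Nt5e was called for time.

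Some values rested on few counts: a CDK2-high sample held as few as 1 UMI of Hhex, and a mouse at 0 h as few as 4 UMIs of Ccr6.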
